A study of Caenorhabditis elegans with 4 samples.

Results

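The combined PEB-1 peak list held 1854 binding regions over the 6 chromosomes of Caenorhabditis elegans, and 261 of them lay on chromosome III (14.1%, 95% exact binomial interval 12.5 to 15.7). They were taken as every line of that list assigned to chromosome III, whatever its strength, and they are described here by position, width, spacing and overlap with the peaks of the single replicates. The chromosome III peaks covered 50.8 kb in all, or 0.369% of the chromosome's span. The span was taken as position 1 to 13781281, the end of the last peak in any list, and made up 13.8% of the summed spans. The density was 18.9 combined peaks per Mb, below chromosome I (26.6) and chromosome X (21.5) and next to chromosome II (18.5).

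PEB-1 binds DNA through a FLYWCH-type zinc finger and is known from the pharynx, the muscular feeding organ of the worm, where it binds an enhancer of the pharyngeal myosin gene myo-2. C. elegans autosomes have a gene-rich centre with little recombination. It is flanked by arms that recombine more and carry more repeats, so the surroundings of a peak differ between these regions. The left arm, centre and right arm named below are parts of equal length, cut by position alone. The borders of the recombination regions were not used, so a peak named for an arm may lie in the low-recombination centre. Chromosome III is an autosome, and it carries unc-119, which is mutated in this strain and supplied again by the transgene. The gene table at hand (assembly WBcel235) places unc-119 on III and peb-1 on X. That table follows another build than the peaks, so whether a peak lies at unc-119, or which genes lie beside any peak, was not analysed here.

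All 4 libraries came from hermaphrodites of strain OP86 at the second larval stage (L2), grown at 20 °C. The strain has the mutant allele unc119(ed3) and the transgene wgIs86, made by bombardment, in which peb-1 carries a TY1 EGFP FLAG tag and a working unc119 copy is included. An antibody to GFP pulled down the tagged PEB-1 with its DNA. There were 2 ChIP libraries and 2 inputs, which are chromatin set aside before the antibody was added. No library without the tagged protein is among these samples, and nothing in the labels says whether replicates 1 and 2 were separate cultures, so differences between them may be technical. The data are the authors' PeakSeq intervals on WormBase build WS220, each with a q-value (a p-value corrected for the number of regions tested). The lists held 177 chromosome III peaks for replicate 1, out of 1095, and 21 for replicate 2, out of 153. Read depth is unknown, and the intervals given cover only the counting error of peaks.

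The strongest chromosome III peaks were wide and were all present in replicate 1. The first was a region of 856 bp in the centre, at 8801374 to 8802229, with q = 4.10e-27 in the combined list, 9.91e-21 in replicate 1 and 9.65e-05 in replicate 2. It ranked 5 in the whole combined list. The next 3 all lay on the left arm and were also found in both replicates. The peak at 1925060 to 1925552 had q = 3.15e-23 in the combined list, 3.53e-17 in replicate 1 and 9.52e-05 in replicate 2. At 4281922 to 4282528 the q-values were 3.79e-21, 1.78e-17 and 5.12e-06, and the last of these was the lowest q of replicate 2 on chromosome III. The peak at 4560366 to 4560909 had q = 5.07e-14 in the combined list, 9.30e-12 in replicate 1 and only 0.00834 in replicate 2. These 4 peaks kept the first 4 places on chromosome III in replicate 1 as well, with places 2 and 3 exchanged.

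Places 5 to 10 were held by peaks that overlapped replicate 1 and not replicate 2. They lay at 623760 to 624062 (q = 4.39e-13), 9618896 to 9619653 (q = 3.19e-12), 7570226 to 7570767 (q = 1.05e-10), 4552027 to 4552376 (q = 3.09e-10), 1921025 to 1921634 (q = 3.66e-10) and 8416966 to 8417788 (q = 5.27e-10). Of the 10 strongest, 6 lay on the left arm, 3 in the centre and 1 on the right arm. All of the 20 strongest overlapped replicate 1, and 6 overlapped replicate 2. The right arm had no peak as strong as the leaders elsewhere: after the region at 9618896, its strongest were at 11054790 to 11055160 (q = 1.68e-08) and 9639212 to 9639804 (q = 5.94e-08). Peaks with q below 1e-05 numbered 44 of 261 (16.9%, interval 12.5 to 22.0), beside 18.3% in the whole combined list. The left arm held 18 of these 44, the centre 13 and the right arm 13. Median −log10 q was 3.46 on the left arm, 3.33 in the centre and 3.30 on the right arm, so typical peaks were of much the same strength along the chromosome.

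Replicate 1 accounted for most of the support of these peaks. Of the 261 peaks, 144 shared 1 bp or more with a peak of replicate 1 (55.2%, interval 48.9 to 61.3), beside 48.1% of all combined peaks. Replicate 2 overlapped 17 (6.51%, interval 3.84 to 10.2), beside 7.07% of all combined peaks. A peak in both replicates was rare, with 10 cases (3.83%, interval 1.85 to 6.93; 4.69% over all chromosomes), and 110 peaks overlapped neither list (42.1%, interval 36.1 to 48.4; 49.6% over all chromosomes). The lists are not independent, because the combined analysis uses the same ChIP libraries. In all, 151 peaks (57.9%, interval 51.6 to 63.9) overlapped at least 1 replicate, and without replicate 1 this fell to 6.51%. Replicate 2 has 21 peaks on III and replicate 1 has 177, so the length of its list limits how many of the 261 replicate 2 can overlap.

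The share of peaks found in replicate 1 was 8.28 percentage points higher on III than on the other chromosomes (55.2% against 46.9%; 95% Newcombe interval 1.74 to 14.7). This difference missed the threshold of 0.05 (two-sided Fisher's exact test, p = 0.0135, adjusted p = 0.054 over 4 tests). Its size rested on chromosome I: with that chromosome left out of the others, the difference was 3.83 points (exact p = 0.274). For replicate 2 the difference was -0.643 points (interval -3.41 to 3.21; Fisher's exact p = 0.795, adjusted p = 0.932). These tests count peaks as independent, although peaks can lie close together.

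The 10 peaks in both replicates spread over the chromosome, with 4 on the left arm, 4 in the centre and 2 on the right arm. Besides the 4 strongest, they were at 1923470 to 1924039 (combined q = 2.04e-07), 6464127 to 6464468 (q = 1.04e-08), 8720283 to 8720382 (q = 3.04e-05), 8865277 to 8865653 (q = 2.26e-08), 13002122 to 13002408 (q = 4.02e-05) and 13062439 to 13062802 (q = 5.98e-07). Overlap in replicate 2 was often thin. At 1923470 the replicate 2 peak was 10 bp wide within a combined peak of 570 bp, and at 8720283 it was 5 bp wide, with q-values of 0.00845 and 0.00636. Every base pair shared by the replicates on chromosome III, 1768 bp in all, also lay in a combined peak.

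A further 7 combined peaks overlapped replicate 2 and not replicate 1. They included 2 on the left arm, at 4189399 to 4189458 and 4193629 to 4193880, and 1 in the centre at 5507852 to 5508014. The other 4 lay on the right arm, and the last of them, at 13778183 to 13781281, was the widest combined peak of the chromosome (3099 bp, q = 4.42e-05). Replicate 2 had a region of 1736 bp there (q = 0.00167), and replicate 1 had none. This region is also the last on the chromosome and sets the end of the span used here.

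Overlap with replicate 1 was more frequent among strong peaks and, up to 500 bp, among wide peaks. In the strongest 65 peaks 81.5% overlapped replicate 1, in the next 65 it was 64.6%, then 49.2%, and in the weakest 66 it was 25.8%. By width, 13.8% of the 65 peaks under 50 bp overlapped replicate 1, against 74.6% of the 71 peaks from 150 to under 250 bp and 92.7% of the 55 peaks from 250 to under 500 bp. In the 14 peaks of 500 bp or more it was 85.7%. Replicate 2 overlap rested on few peaks per class and did not change step by step. By strength it was 12.3% in the strongest 65, then 6.15%, 1.54% and 6.06%. By width it was 8.93% of peaks from 50 to under 150 bp and 1.41% from 150 to under 250 bp. It was 10.9% from 250 to under 500 bp and highest in the widest, at 35.7%. None of the 65 shortest peaks overlapped replicate 2 (0 of 65, which allows a share of up to 4.62% by the limit of 3 counts and 5.52% by the exact interval). A wide interval meets a 1 bp overlap more easily, so these shares are descriptions. They were computed for chromosome III only, so they do not show whether other chromosomes differ.

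Peak width ranged from 2 to 3099 bp, with a median of 163 bp (quartiles 51 to 256), close to the 155.5 bp of the whole list. Under 50 bp were 65 of 261 (24.9%, interval 19.8 to 30.6), beside 25.2% of all combined peaks. Peaks in both replicates had a median width of 435 bp, peaks in replicate 1 only 222 bp, peaks in replicate 2 only 108 bp, and peaks in neither 47.5 bp. Of the 110 peaks in neither list, 56 were under 50 bp (50.9%, interval 41.2 to 60.6), against 9 of the 134 in replicate 1 only (6.72%, interval 3.12 to 12.4). Short peaks were least frequent in the centre, at 14 of 83 (16.9%, interval 9.54 to 26.7), with 24 of 86 on the left arm (27.9%, interval 18.8 to 38.6) and 27 of 92 on the right arm (29.3%, interval 20.3 to 39.8). The intervals of the 3 parts overlap, and this pattern was not tested.

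The extremes of width showed that a narrow interval can carry a low q-value. Exactly 5 peaks were 2 bp wide, and those at 3786531 to 3786532 and 3301039 to 3301040 had q = 1.28e-05 and 2.08e-05, places 49 and 59 of the 261. The remaining 3 were at 2528814 to 2528815, 4923495 to 4923496 and 12140633 to 12140634, and of the 5 only the one at 4923495 overlapped replicate 1. At the other end, the second widest peak (7446850 to 7447885, 1036 bp) had a weak q-value of 0.00595 and was in neither replicate. The next 3 in width, at 8801374, 8416966 and 9618896, measured 856, 823 and 758 bp and were among the 10 strongest. Width did not fix the place, as the peak of 611 bp at 8799933 held only place 101. Across the 261 peaks, width and −log10 q went together only in part (Spearman's rho = 0.51, Pearson's r = 0.41), a correlation across peaks of 1 list, given as a description.

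**Figure D1:**
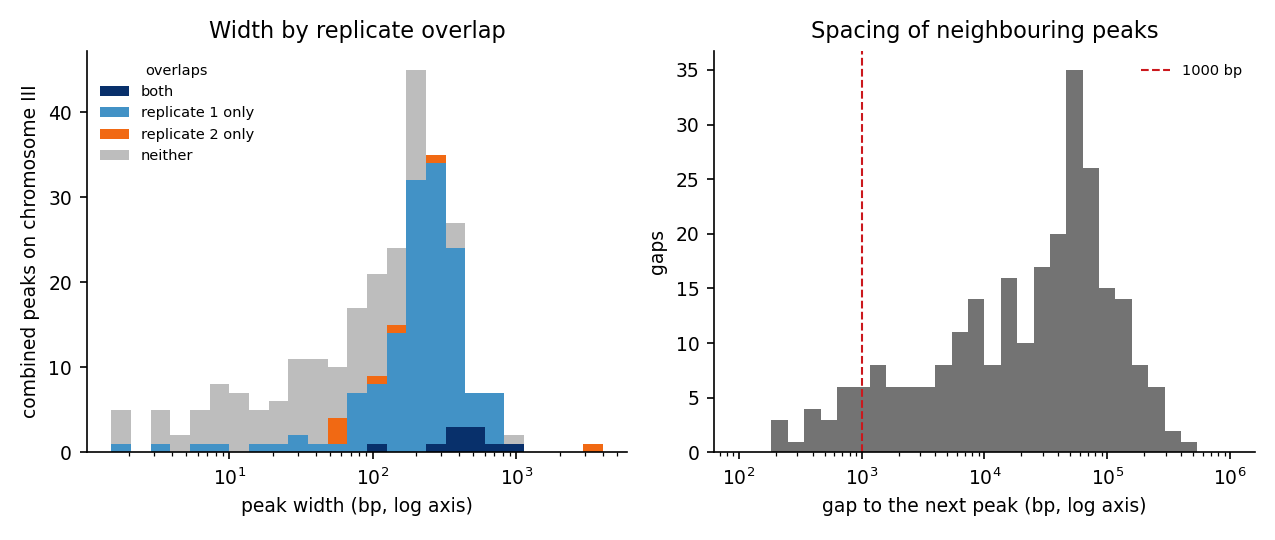
Left, number of combined chromosome III peaks by width in bp (log axis), coloured by the replicate lists they overlap. Right, number of gaps between neighbouring peaks by length in bp (log axis), with a dashed line at 1000 bp. Peaks in neither replicate (grey) make up most of those under 50 bp, and 19 of 260 gaps lie at or below the line.

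Among the 110 peaks found in neither replicate, the strongest was at 3303048 to 3303076, 29 bp wide with q = 4.82e-06, place 33 of the chromosome. It was followed by peaks at 504980 to 505176 (q = 8.56e-06), 11946741 to 11946838 (q = 9.10e-06), 3818168 to 3818258 (q = 1.10e-05) and 11869905 to 11870291 (q = 1.19e-05). All of the 32 peaks ahead of the first of these were in replicate 1. The peaks absent from replicate 1 were rarely near misses: 10 of 117 (8.55%, interval 4.17 to 15.2) had a replicate 1 peak within 1000 bp, and the median distance to the nearest was 27922 bp.

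Where a peak was shared with replicate 1, the widths were mostly close and the combined list usually had the lower q-value. These pairs were chosen by overlap, so they lie at the same place by definition. Of the 144 shared peaks, 143 matched a single replicate 1 peak and 1 matched more than 1. The combined peak was wider in 82 of those 143 pairs and narrower in 56, with a median difference of 6 bp (quartiles -18.5 to 41.5). The combined list had the lower q-value in 118 of 144 (81.9%, interval 74.7 to 87.9), against 671 of 747 on the other chromosomes (89.8%, interval 87.4 to 91.9), a difference that was not tested. On III the pairs had a median gain in −log10 q of 0.82 (quartiles 0.27 to 1.49). Median gains were 0.79 on the left arm, 0.82 in the centre and 0.77 on the right arm, so the gain was much the same along the chromosome. On the other chromosomes the median gain was 1.02 (n = 747), and without chromosome I it was 0.78 (n = 612). In order of strength the lists followed each other (Spearman's rho = 0.81, Pearson's r = 0.96 across 144 peaks, a description, since both lists use the replicate 1 library).

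**Figure D2:**
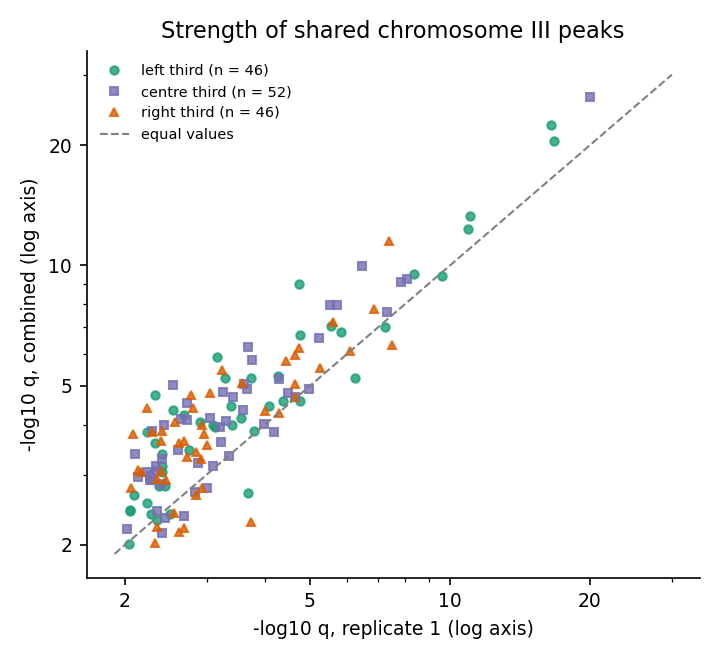
Each point is a combined chromosome III peak that overlaps replicate 1, with −log10 q in replicate 1 on the x axis and in the combined list on the y axis (both log axes); colours and shapes mark the left arm, centre and right arm, and the dashed line marks equal values. Of the 144 points, 118 lie above the line, and points from all parts of the chromosome are mixed.

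Cut into 3 equal parts, chromosome III had a near-even spread of combined peaks. Dividing the span into 3 equal parts placed 86 peaks on the left arm (33%, interval 27.3 to 39.0), 83 in the centre (31.8%, interval 26.2 to 37.8) and 92 on the right arm (35.2%, interval 29.5 to 41.4). The left arm ends near 4593761 and the right arm starts near 9187522. These cuts follow length, not recombination, and need not match the borders of the gene-rich centre. The centre makes up 1 of 3 equal lengths, and the interval of its share includes the 33.3% of an even spread. Over all autosomes the centre held 37.6% of combined peaks. The other single autosomes had 36.7% (I and IV), 40.6% (II) and 41.9% (V), and the interval of III includes the value of I and IV. Set against the other autosomes, at 38.8%, the centre share on III differed by -7.03 percentage points (95% Newcombe interval -13.1 to -0.558), and the difference missed the threshold after adjustment (two-sided Fisher's exact test, p = 0.0347, adjusted p = 0.0694 over 4 tests).

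The replicate 1 list had a larger centre share on the same chromosome, by an amount that depended on the short peaks. It placed 72 of 177 peaks in the centre (40.7%, interval 33.4 to 48.3), 51 on the left arm (28.8%, interval 22.3 to 36.1) and 54 on the right arm (30.5%, interval 23.8 to 37.9). Over all autosomes the replicate 1 centre share was 41.0%, and III differed from the other autosomes by -0.456 points (interval -8.35 to 7.75; Fisher's exact p = 0.932, adjusted p = 0.932). Replicate 2 had 7 peaks in each part, too few to place its share more closely than 14.6 to 57.0%. The lists share a library, so the centre share of the combined list (31.8%) and that of replicate 1 (40.7%) were not tested against each other, and their intervals overlap. Among peaks of at least 50 bp the shares lay nearer, at 35.2% (69 of 196) in the combined list and 38.0% (57 of 150) in replicate 1. In the stronger 50% of each list they were 32.1% and 38.4%.

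The gap between the lists can be followed peak by peak. Peaks common to both were 36.1% central (52 of 144 combined peaks, interval 28.3 to 44.5). The 117 combined peaks without a replicate 1 partner were 26.5% central (31, interval 18.8 to 35.5), with 40 on the left arm and 46 on the right arm. The other autosomes showed the same order, with 43.1% central among combined peaks in replicate 1 (239 of 554, interval 39.0 to 47.4) and 35.2% among those without a partner (232 of 659, interval 31.6 to 39.0). The 32 replicate 1 peaks without a combined partner were 62.5% central (20, interval 43.7 to 78.9), with 4 on the left arm and 8 on the right arm. Of the 117 combined peaks without a replicate 1 partner (7 of them in replicate 2), 34.2% lay on the left arm and 39.3% on the right arm. Each arm makes up 33.3% of the span. The replicate 1 peaks without a combined partner lay mostly in the centre. Cut to its strongest 177 peaks, as many as replicate 1 has, the combined list was 33.3% central.

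**Figure D3:**
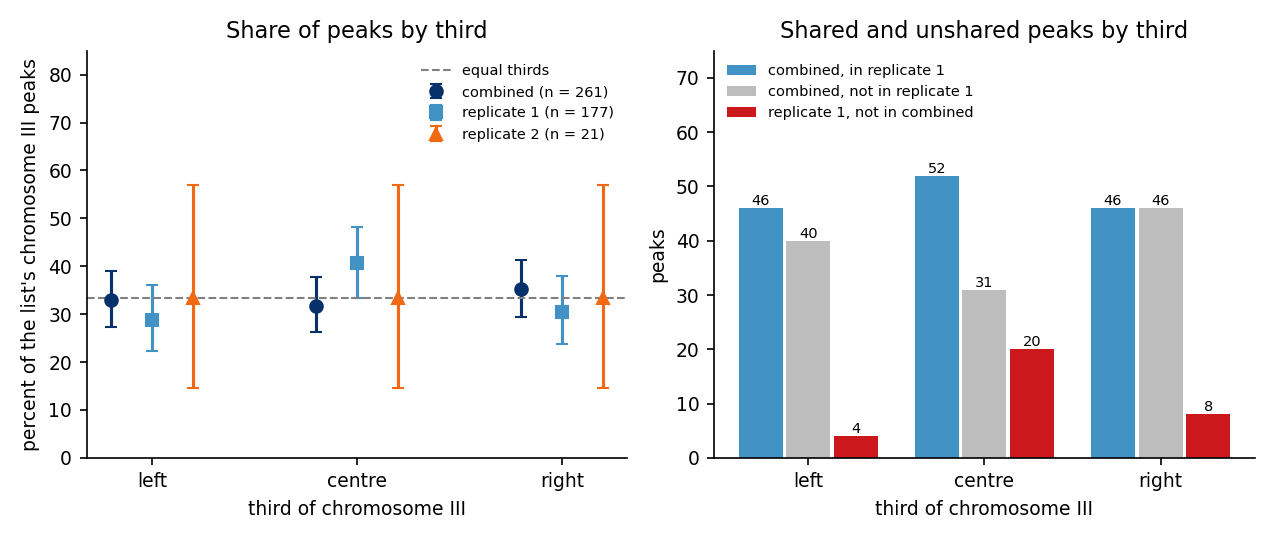
Left, percent of each list's chromosome III peaks in the left, centre and right part, with 95% exact binomial intervals; the dashed line marks equal parts. Right, number of peaks in each part that are shared, that are combined peaks without a replicate 1 partner, or that are replicate 1 peaks without a combined partner. The centre holds 72 of 177 replicate 1 peaks but 83 of 261 combined peaks, and 20 of the 32 replicate 1 peaks not recovered.

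Recovery of replicate 1 peaks in the combined list differed between the parts. On chromosome III as a whole 145 of 177 were recovered (81.9%, interval 75.4 to 87.3), beside 81.6% over all chromosomes. The left arm kept 47 of 51 (92.2%, interval 81.1 to 97.8), the right arm 46 of 54 (85.2%, interval 72.9 to 93.4) and the centre 52 of 72 (72.2%, interval 60.4 to 82.1). On the other autosomes, pooled, the order was another, with 84.5% kept in the centre, 79.0% on the left arm and 77.0% on the right arm, a contrast noticed in these counts and not tested. Single autosomes varied widely. Their arms kept from 56.8% (left arm of II) to 91.7% (left arm of I), and their centres from 79.3% (II) to 88.5% (I). The peaks that were lost were weak and often narrow, with a median −log10 q of 2.40 against 2.96 for those kept, and 15 of 32 under 50 bp against 12 of 145. The strongest lost peak, at 7948828 to 7948947 (q = 0.000163), held place 44 in replicate 1 on this chromosome. The next were at 5761521 to 5761553 (q = 0.000434) and 6455468 to 6455490 (q = 0.000696). For replicate 2, 17 of 21 peaks were recovered (81.0%, interval 58.1 to 94.6), beside 84.3% over all chromosomes. The 4 that were not lay at 10224466 to 10225356 (q = 0.000442), 931226 to 931823 (q = 0.00157), 8439023 to 8439027 (q = 0.00328) and 7594736 to 7595105 (q = 0.00478).

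In bins of 1 Mb the counts varied more than between the 3 parts. The fullest bins were the fourth (3000001 to 4000000), with 30 combined peaks, and the ninth (8000001 to 9000000), with 29. They differed in support: 15 of 30 peaks in the fourth bin overlapped replicate 1 (50.0%) and none overlapped replicate 2, while in the ninth 19 of 29 overlapped replicate 1 (65.5%) and 7 had q below 1e-05, the most of any bin. The emptiest bin was the seventh (6000001 to 7000000), in the middle of the chromosome, with 6 combined peaks. It was the only one of the 14 bins with more replicate 1 peaks (8) than combined peaks, and 4 of those 8 had no combined partner. The bin before it (5000001 to 6000000) had lost 7 of its 19 replicate 1 peaks, so these bins together held 11 of the 32 lost. Bins 2 and 3 were the next emptiest, with 12 combined peaks each.

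Support by replicate 1 was highest in the first bin and lowest in bin 3. In the first bin 11 of 13 combined peaks overlapped replicate 1 (84.6%), whereas in bin 3 (2000001 to 3000000) it was 3 of 12 (25%), and the remaining 9 were in neither list. Towards the right, the twelfth bin (11000001 to 12000000) had 22 combined peaks of which 8 overlapped replicate 1 (36.4%). Compared with replicate 1, the combined list gained most in the fourth bin (14 more peaks), the twelfth (12 more) and the thirteenth (10 more), all of them on the arms.

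**Figure D4:**
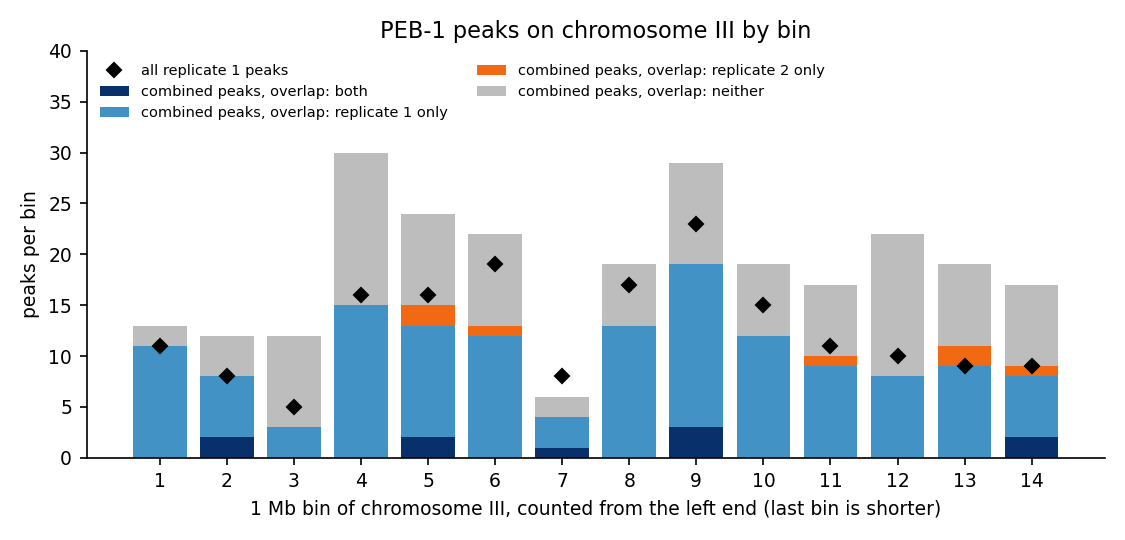
Number of combined peaks in each 1 Mb bin of chromosome III, stacked by the replicate lists they overlap, with black diamonds for all replicate 1 peaks in the bin; the last bin is shorter (0.781 Mb). Bins 4 and 9 hold 30 and 29 combined peaks, and in bin 7 the 8 replicate 1 peaks outnumber the 6 combined peaks.

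Neighbouring peaks were separated by a median of 31432.5 bp (quartiles 7013 to 67382.5). Medians on the other chromosomes ran from 21170.5 bp on II to 34693 bp on V. The longest stretches without a combined peak were 6606378 to 7085187 (479 kb, with 2 replicate 1 peaks inside), 1122541 to 1516501 (394 kb, with none) and 2681722 to 2993185 (311 kb, with 2 replicate 1 peaks inside). No replicate 2 peak lay in any of these 3. Gaps of up to 1000 bp numbered 19 of 260 (7.31%), a share close to the 7.25% of all combined gaps. More of them began in the centre (11) than on the left arm (3) or the right arm (5). Joining peaks across such gaps left 242 regions, of which 13 held 2 peaks and 3 held 3 peaks. The gaps are read from the calls, and whether a close pair is 1 enriched stretch called in pieces was not tested.

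All 3 regions with 3 peaks lay in the centre. In the region from 8799933 to 8802579, the strongest peak of the chromosome was flanked by a peak of 611 bp (8799933 to 8800543, q = 0.000147), which replicate 1 also had, and by one of 112 bp (8802468 to 8802579, q = 0.00051), which neither replicate had. At 7728457 to 7730557 a peak of 670 bp (7729286 to 7729955, q = 7.62e-10) lay between one of 291 bp in replicate 1 and one of 27 bp in neither. The region from 5502908 to 5504405 was weaker, with peaks of 12, 290 and 152 bp and a lowest q of 4.42e-05. The closest neighbours were 226 bp apart on the left arm, where 4189399 to 4189458, found in replicate 2 only, preceded 4189685 to 4189844, found in replicate 1 only. The next closest pairs were the strongest peak and its right neighbour (238 bp) and, on the right arm, 12614548 to 12614903 and 12615154 to 12615635 (250 bp), both in replicate 1. No gap in any list, on any chromosome, was shorter than 200 bp. Whether the calling sets such a lower limit was not tested. Among the 19 close neighbours, 9 pairs were both in replicate 1, 8 had 1 member there and 2 had none.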

How the data were processed

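Peaks were analysed for 2 ChIP libraries of PEB-1::GFP; no separate list of the 2 inputs was used. The authors deposited 3 PeakSeq peak lists on WormBase build WS220, per the file headers, whose only measured value is a q-value per peak. Every deposited q-value is below 0.01, and the largest is 0.00996. The aligner, caller settings, depth and way of combining replicates were not given in the sources used here. Because q depends on depth, numbers of peaks in different lists are not on a common scale.

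From these lists, widths (both ends counted), midpoints, gaps and overlaps of at least 1 bp were computed. A peak belongs to the part or 1 Mb bin that holds its midpoint. Shares carry 95% exact (Clopper-Pearson) intervals. Planned differences between chromosome III and the rest used 4 two-sided Fisher's exact tests, adjusted together by Benjamini-Hochberg, with Newcombe intervals. Scripts were tested on simulated lists. The members, lists and tests were chosen with earlier results of these data known. Named peaks follow a rule: the 10 strongest, all in both replicates, the widest and shortest, the strongest in neither replicate, of each part and of the unrecovered peaks, close groups, the longest gaps and the fullest and emptiest bins. Other named items, among them the peaks in replicate 2 only and the first, sixth, twelfth and thirteenth bins, were chosen after their values were seen. Alternatives changed the overlap rule, span, width, strength, merging and chromosomes compared. No WS220 sequence or annotation was used here, so no gene or sequence is given. Python 3.11.15, NumPy 2.4.6, SciPy 1.17.1, pandas 2.3.3, statsmodels 0.14.6 and Matplotlib 3.10.9 were used.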

Additional observations from a re-analysis of the deposited data

How the results depend on the processing

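None of the 4 tests passed at 0.05 after adjustment, but 2 of them did under some alternatives. The lower centre share on III than on the other autosomes in the combined list ranged from -9.58 to -4.52 percentage points over 9 alternatives and passed under 2. These were merging neighbours within 1000 bp (-8.56 points, adjusted p = 0.027) and leaving out chromosome I (-8.1 points, adjusted p = 0.0382), with Fisher's exact tests throughout. The higher replicate 1 support on III ranged from 3.83 to 10.8 points over 7 alternatives and passed under 3: an overlap of 50% of the shorter peak (8.72 points), peaks of at least 50 bp (10.8 points) and chromosome X left out (9.5 points). Directions reversed only where the differences were small: the replicate 1 centre share with the central 50% of the span (0.906 points) and replicate 2 support with chromosome X left out (0.248 points). The cause was not tested. With the centre kept as the middle of 3 equal parts, its share on III stayed between 26.5% and 36.1% in the combined list over 8 alternatives. In replicate 1 it stayed between 38.0% and 40.7% over 5. The central 50% of the span held 56.3% of combined and 63.8% of replicate 1 peaks on III. The share of chromosome III peaks with any replicate support was 57.9%, with 6.51% without replicate 1 and 55.2% without replicate 2. Replicate 1 has the longer list, and the cause of this difference in support was not tested. For the centre share on III alone, the cut to the length of the replicate 1 list and the split by replicate 1 overlap were added after the data were seen, as was leaving out peaks of 1000 bp or more in its test. No paired analysis was possible because each list is scored without separate input values. Since read depth is unknown, absence from the short replicate 2 list may only mean that a peak was undetectable there.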

Other observations

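Chromosome III had many gaps of one length class, noticed in the histogram of gaps. Gaps of 55 to 70 kb made up 37 of its 260 combined gaps (14.2%), against 101 of 1588 on the other chromosomes (6.36%). Its replicate 1 list had 24 of 176 gaps in this window, and the share on the other chromosomes was not computed for that list. The median replicate 1 gap on III was 55118.5 bp, so the window lies at the middle of those gaps. The replicate 1 count is therefore no separate support. The window was chosen after the values were seen, and the difference was not tested.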
